A study of Mus musculus with 7 samples.

Results

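The anaphase-promoting complex, or cyclosome (APC/C), is a ubiquitin ligase, and 10 of its genes were followed here: the core subunits Anapc1, Anapc4, Anapc5, Anapc10, Anapc11, Cdc16, Cdc23 and Cdc27 and the activators Cdc20 and Fzr1. They were taken by name, with no measured value used, from a table of 37620 Ensembl genes, and each name matched 1 identifier. RNA was sequenced from 7 mouse eggs, each a single oocyte halted in metaphase of meiosis II (MII). Of these, 4 were Hiraf/f, Zp3-Cre oocytes (KO1 to KO4) and 3 were Hiraf/f oocytes (WT1, WT2 and WT4). Both groups thus carried floxed alleles of Hira, whose product places a histone variant in chromatin outside replication, and Cre was present in the KO group alone. The Zp3 promoter drives Cre in growing oocytes, so Hira is removed in the course of oocyte growth. Age, strain and animal are not given in the sources used here. Each library was 1 cell of an unnamed animal, so a genotype counts as 1 sample and no test is given. SDs are between single oocytes, and "higher" and "lower" describe these libraries.

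The APC/C attaches ubiquitin to cyclin B and securin, and their destruction lets chromatids part and the cell leave metaphase. Platform subunits hold together a lobe of tetratricopeptide (TPR) subunits and a catalytic module, while an activator, CDC20 or CDH1 (encoded by Fzr1), brings the substrate. In mouse oocytes CDH1 helps to hold the prophase arrest and CDC20 serves the meiotic divisions, whereas the MII arrest is kept by EMI2 (encoded by Fbxo43), which blocks the APC/C until the egg is fertilized. A full-grown oocyte makes almost no new RNA, so the transcripts of an MII oocyte are those stored earlier and not yet degraded.

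Levels are FPKM, reads per length of a gene and relative to the size of the library, as the authors deposited them. The genotype difference is the KO minus WT difference of mean log2(FPKM + 1), and over 1.5-fold means past 1.5-fold on that scale. The filter kept the 8033 genes that reached FPKM 1 in 3 or more oocytes. Reads in genes ran from 15887904 to 25940519 in KO and from 15340782 to 20077129 in WT oocytes. Genes at FPKM 1 or more numbered 7664 to 8222 in KO and 6959 to 7286 in WT oocytes, without overlap. The FPKM of all genes summed to 242736 to 256613 in KO and 261571 to 268765 in WT oocytes, also without overlap. The part of these library-wide differences in the results below was not tested. Hira averaged 0.0784 ± 0.0362 FPKM in KO and 0.317 ± 0.0280 FPKM in WT oocytes, with no overlap. It did not pass the filter, and these levels rested on 12, 15, 5 and 17 reads in KO and 42, 55 and 35 in WT oocytes. All 12 oocyte markers were present in all 7 cells, with summed levels of 13122 to 15668 FPKM in KO and 20140 to 21537 FPKM in WT oocytes. The largest differences among them were -1.01 for Zp2, a zona pellucida gene, and -0.77 for Dppa3, a maternal factor. Ooep (0.28), Mos (0.14) and Nlrp5 (0.03) were higher in KO oocytes. Dppa3 weighed most in the sum, averaging 5718 FPKM in KO and 9676 FPKM in WT oocytes. Over 1.5-fold lower were 5 of the 12 as deposited (7.92% of all genes). With median-ratio scaling it was 5 (14.0%), and with quantile normalization 1 (12.7%). Of 20 cumulus and granulosa cell markers, 17 averaged under FPKM 1 in both genotypes and 7 (Lhcgr, Amh, Amhr2, Foxl2, Tnfaip6, Cd44 and Gja1) were at 0 in every oocyte. Their summed level was 32.9 to 36.7 FPKM in KO and 23.7 to 25.9 FPKM in WT oocytes. Cyp19a1 made up most of it, at 24.6 ± 3.77 FPKM in KO and 22.0 ± 1.78 FPKM in WT oocytes. Among markers under FPKM 1, Has2, Ptgs2, Hsd3b1, Vcan and Runx1 averaged lower in KO oocytes. Cyp11a1, Star, Inhba, Inha and Ptx3, also under FPKM 1, averaged higher in KO oocytes. Nr5a2 averaged 7.25 ± 0.904 FPKM in KO and 2.53 ± 0.994 FPKM in WT oocytes, and Fshr was at 0, 2.99, 4.34 and 4.51 FPKM in KO1 to KO4 and listed at 0 in all WT oocytes. The 5 blood cell markers summed to at most 1.99 FPKM in KO and 1.52 FPKM in WT oocytes. The part of these markers in the differences below was not tested.

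Several APC/C transcripts stood higher in the KO oocytes, among them that of the activator Cdc20, while Anapc10 stood lower. Over 1.5-fold higher were 5 of the 10 genes, Anapc5, Cdc16, Anapc11, Cdc20 and Fzr1, where 22.6% of all genes past the filter were. None of the 10 was over 1.5-fold lower, against 7.92% of all genes. Only Cdc20 had every KO oocyte above every WT oocyte, where 18.9% of all genes did, and only Anapc10 had every KO oocyte below, where 8.94% did. The count of 1 in 10 above is under the share of all genes, and the count of 1 in 10 below is near it. Fzr1, among the 5 counted as higher, passed the filter through KO oocytes alone, and Cdc23 did not pass it. The median difference was 0.43 over all 10 genes, 0.59 over the 9 that passed and 0.43 over the 8 of them other than Fzr1, beside 0.18 for all genes past the filter.

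**Figure D1:**
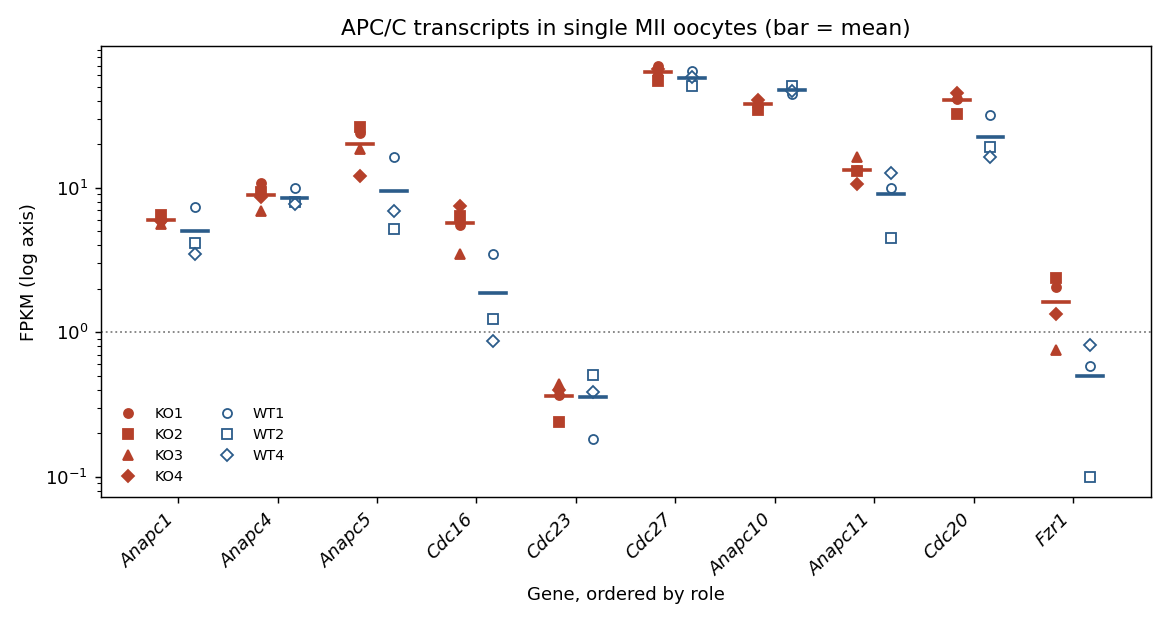
FPKM of the 10 APC/C genes in each single oocyte on a log axis, KO (filled) left of WT (open) for each gene, with bars at the means and a dotted line at FPKM 1. Levels span from 63.8 FPKM for Cdc27 to 0.362 FPKM for Cdc23 in KO oocytes, Cdc20 and Anapc10 are the genes whose genotypes do not overlap, and WT1 lies among the KO oocytes for Anapc5 and Anapc1 or above them.

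Promoter windows are shown for the 2 genes without overlap and for the 2 with the largest difference, Cdc16 and Anapc5, to set the sequence beside the direction of each. Each runs from 250 bases before to 50 after the start site, taken from RefSeq on build GRCm38.p6. The submitters' processing notes name the mm9 build for the table, and the windows were joined to it by symbol alone. Capitals mark matches on either strand to CCAAT (the CCAAT box), TTTGAA (the cell cycle gene homology region), CCGGAAGT (an ETS site), TGACGTCA (a cAMP response element) and an NRF1 site written as GCGC, any 2 bases and GCGC again.
Cdc20, chr4:118437294-118437593, minus strand: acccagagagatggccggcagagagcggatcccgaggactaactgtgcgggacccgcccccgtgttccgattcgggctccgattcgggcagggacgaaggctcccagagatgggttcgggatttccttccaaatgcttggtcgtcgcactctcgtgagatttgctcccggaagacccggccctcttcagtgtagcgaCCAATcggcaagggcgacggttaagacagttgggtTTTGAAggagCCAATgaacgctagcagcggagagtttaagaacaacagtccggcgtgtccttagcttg
Anapc10, chr8:79711513-79711812, plus strand: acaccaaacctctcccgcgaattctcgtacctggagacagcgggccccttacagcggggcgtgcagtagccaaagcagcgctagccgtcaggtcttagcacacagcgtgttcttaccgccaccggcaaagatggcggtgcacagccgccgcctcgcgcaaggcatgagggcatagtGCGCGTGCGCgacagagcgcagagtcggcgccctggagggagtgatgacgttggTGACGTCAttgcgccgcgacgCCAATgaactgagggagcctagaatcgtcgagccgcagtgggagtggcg
Anapc5, chr5:122821293-122821592, minus strand: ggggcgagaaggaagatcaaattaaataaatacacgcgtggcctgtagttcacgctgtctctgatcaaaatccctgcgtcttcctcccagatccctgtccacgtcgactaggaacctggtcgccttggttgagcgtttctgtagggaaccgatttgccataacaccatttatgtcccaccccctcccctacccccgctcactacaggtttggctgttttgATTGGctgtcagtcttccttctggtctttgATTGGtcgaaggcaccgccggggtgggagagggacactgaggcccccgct
Cdc16, chr8:13757406-13757705, plus strand: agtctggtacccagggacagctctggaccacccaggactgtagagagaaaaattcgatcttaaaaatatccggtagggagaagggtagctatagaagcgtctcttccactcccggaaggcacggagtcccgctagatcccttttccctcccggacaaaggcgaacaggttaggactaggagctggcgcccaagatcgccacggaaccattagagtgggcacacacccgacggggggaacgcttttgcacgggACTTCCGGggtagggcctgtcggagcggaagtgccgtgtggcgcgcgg

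Of the 9 APC/C genes with a window read here, 6 held CCAAT, where 37.4% of 32851 windows did, and Cdc20, Anapc5 and Cdc27 held it at 2 places. These 9 genes had 11 windows, as Anapc10 and Anapc11 had more than 1, and no window was read for Cdc23. A gene was counted if any of its windows held a match, while the shares beside the counts are of windows. Cdc20 was the single one of the 9 with TTTGAA, found in 17.9% of all windows, and the match lies between its CCAAT boxes. Anapc10 alone held TGACGTCA, found in 1.79% of windows. The NRF1 letters were in Anapc1, Anapc10 and Fzr1 (6.23% of windows) and the ETS letters in Cdc16 and Anapc11 (3.89%). CCAAT was thus in Anapc10, which was lower, as well as in Cdc20 and Anapc5, which were higher, and it was not in Cdc16. The motifs were picked after values and windows had been seen, and a match describes letters, not binding.

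The platform genes differed among themselves. Anapc1, the largest subunit, was at 6.04, 6.51, 5.61 and 5.88 FPKM in KO1 to KO4 and at 7.39, 4.13 and 3.49 FPKM in WT1, WT2 and WT4. The KO oocytes lay close together, inside the wide span of the WT oocytes, and the difference was 0.28. Anapc4 was at 10.8, 9.34, 6.87 and 8.63 FPKM in KO and at 9.94, 7.995 and 7.68 FPKM in WT oocytes. Its difference of 0.05 was smaller than the SD of either group (0.24 in KO and 0.18 in WT, log2). Anapc5 was at 24.1, 26.2, 18.6 and 12.1 FPKM in KO and at 16.4, 5.21 and 6.87 FPKM in WT oocytes. Here 3 of the 4 KO oocytes lay above all WT oocytes and KO4 lay below WT1. Anapc5 averaged 20.2 ± 6.32 FPKM in KO and 9.48 ± 6.02 FPKM in WT oocytes (SD, n = 4 and n = 3), 2.14-fold higher in KO (3.35-fold without WT1), with a difference of 1.11. Of these 3 genes that form one part of the complex, Anapc5 was thus the one over 1.5-fold apart.

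Among the TPR genes, Cdc16 had the largest deposited difference of the 10 genes and the other two lay near no difference. Cdc16, which stacks with Cdc23 and Cdc27 in the TPR lobe, was at 5.56, 6.42, 3.47 and 7.44 FPKM in KO and at 3.49, 1.24 and 0.865 FPKM in WT oocytes. KO3 and WT1 were almost level, which is the whole overlap. The difference was 1.30 and the ratio of means 3.07, which was 5.44 without WT1. Without KO4 the difference was 1.18, under the 1.33 of Anapc5, and with a pseudocount of 5 it was 0.65, under Anapc5 (0.84) and Cdc20 (0.76). These levels rested on 430, 612, 434 and 769 reads in KO and 285, 119 and 63 reads in WT oocytes. Cdc27, the TPR subunit that receives the tail of the activators and of Anapc10, was the most abundant of the 10 in both genotypes. It was at 69.3, 54.8, 64.1 and 67.0 FPKM in KO and at 63.9, 50.5 and 58.7 FPKM in WT oocytes, which overlapped, with a difference of 0.14. Cdc23, which also helps to bind the activator, was at 0.366, 0.241, 0.439 and 0.401 FPKM in KO and at 0.182, 0.505 and 0.389 FPKM in WT oocytes. It never reached FPKM 1, and 44 to 163 reads stood behind each value. Of its exon bases, 13.4% overlap Kif20a on the opposite strand, and 25% of the 50-base stretches of its transcript also occur in Kif20a. No source used here says that strand was kept, so part of even these Cdc23 reads may belong to Kif20a. Its mean was 0.362 FPKM in KO and 0.359 FPKM in WT oocytes, with a difference of 0.01.

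The genes of the substrate-facing and catalytic side went opposite ways. Anapc10, which helps the activator to hold a substrate, was at 38.3, 34.4, 38.6 and 40.4 FPKM in KO and at 44.9, 50.8 and 46.5 FPKM in WT oocytes. All KO oocytes lay below all WT oocytes, as also under median-ratio and quantile scaling. Anapc10 averaged 38.0 ± 2.52 FPKM in KO and 47.4 ± 3.05 FPKM in WT oocytes (SD, n = 4 and n = 3), 0.801 of the WT level. The difference was -0.31, larger than the SDs within groups (0.10 in KO and 0.09 in WT, log2). It was -0.55 with median-ratio scaling and -0.37 with quantile normalization. Anapc11, the RING subunit that binds the ubiquitin-carrying enzyme, was at 13.2, 13.1, 16.3 and 10.7 FPKM in KO and at 9.94, 4.503 and 12.8 FPKM in WT oocytes. Its difference of 0.59 was barely past 1.5-fold and rested on WT2. Without WT2 it was 0.21, and without KO3 it was 0.50.

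The activators were both higher in KO oocytes, at very different levels. Cdc20 was at 41.1, 32.5, 42.9 and 45.03 FPKM in KO and at 32.2, 19.1 and 16.4 FPKM in WT oocytes. The lowest KO oocyte (KO2, 32.47 FPKM) and the highest WT oocyte (WT1, 32.16 FPKM) were nearly level, so the groups were apart by a narrow gap. Cdc20 averaged 40.4 ± 5.52 FPKM in KO and 22.5 ± 8.45 FPKM in WT oocytes (SD, n = 4 and n = 3), 1.79-fold higher, with a difference of 0.86. Under median-ratio scaling the difference was 0.63 and under quantile normalization 0.75, and under both the genotypes overlapped. Of the 50-base stretches of the Cdc20 transcript, 11.6% also occur in other genes, nearly all in the processed pseudogene Gm7856, so a part of its reads cannot be assigned with certainty. Fzr1 was at 2.07, 2.37, 0.749 and 1.34 FPKM in KO and at 0.588, 0.0997 and 0.812 FPKM in WT oocytes. KO3 lay below WT4, and the other KO oocytes lay above all WT oocytes. Its reads were 301, 424, 176 and 261 in KO and 90, 18 and 111 in WT oocytes, in sum 1162 (exact 95% Poisson interval 1096 to 1231) and 219 (191 to 250.006). That interval covers counting error only, since amplified reads are not independent molecules. The difference was 0.80 and the ratio of means 3.27.

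**Figure D2:**
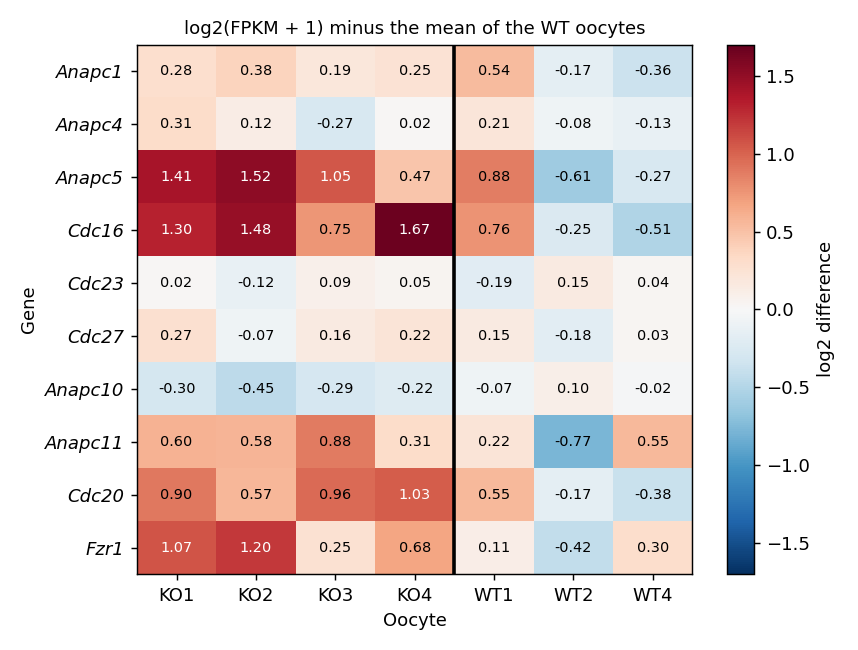
Each cell gives the log2(FPKM + 1) of an APC/C gene (rows) in an oocyte (columns, KO left of WT) minus the mean of the WT oocytes, with red higher and blue lower. Anapc5, Cdc16, Cdc20 and Fzr1 are positive in all 4 KO oocytes and Anapc10 is negative in all 4, and WT1 is positive for 8 of the 10 genes.

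The control oocytes were spread unevenly, in these genes as in the table at large. WT1 was above the WT mean for 8 of the 10 genes (59.7% of all genes past the filter), WT2 for 2 (39.1%) and WT4 for 4 (48.9%). KO1 was above it for 9 (61.1%), KO2 for 7 (68.1%), KO3 for 8 (59.8%) and KO4 for 9 (60.3%). WT1 was the highest WT oocyte for 6 genes, Anapc1, Anapc4, Anapc5, Cdc16, Cdc27 and Cdc20, near the 44.8% of all genes for which it was, and the lowest for Cdc23 and Anapc10. Leaving out an oocyte can only keep or raise the number of genes with every remaining KO oocyte above every remaining WT oocyte, for any set of genes. Without WT1 it was 4 of the 10 (Anapc1, Anapc5, Cdc16 and Cdc20), beside 32.6% of all genes. Without WT2 it was 1 (21.9%) and without WT4 it was 3, Anapc11, Cdc20 and Fzr1 (23.9%). Among the KO oocytes, it was 1 without KO1 (23.3%), 2 without KO2 (Cdc27 and Cdc20, 20.4%), 3 without KO3 (Cdc16, Cdc20 and Fzr1, 24.0%) and 3 without KO4 (Anapc5, Anapc11 and Cdc20, 21.7%).

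The order of the levels was nearly the same in both genotypes. In KO oocytes it ran Cdc27, Cdc20, Anapc10, Anapc5, Anapc11, Anapc4, Anapc1, Cdc16, Fzr1 and Cdc23 from high to low. In WT oocytes Anapc10 stood above Cdc20 and the other places were the same. Among KO oocytes the neighbours whose ranges overlapped were Cdc20 and Anapc10, Anapc5 and Anapc11, Anapc11 and Anapc4, and Anapc1 and Cdc16. Among WT oocytes they were Cdc27 and Anapc10, Cdc20 and Anapc5, Anapc5 and Anapc11, Anapc11 and Anapc4, Anapc1 and Cdc16, and Fzr1 and Cdc23. Levels between genes rest on the gene lengths the authors used, which are not given.

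The summed core stayed close between genotypes, while Anapc10 made up less of it in KO oocytes. The 8 core subunits summed to 167.6, 151, 154.0 and 152.6 FPKM in KO and to 156, 125 and 137 FPKM in WT oocytes. WT1 lay within the KO values, and the log2 ratio of 0.17 turned to -0.075 with median-ratio scaling. Cdc27 made up 40.8% ± 3.24 of this sum in KO and 41.4% ± 1.21 in WT oocytes. Anapc10 made up 24.3% ± 1.80 in KO and 34.4% ± 5.98 in WT oocytes, and no KO share reached the lowest WT share. That separation was fixed by the Anapc10 levels and the core sums already given, so it adds no further result. Anapc5 made up 12.9% ± 3.98 in KO and 6.55% ± 3.43 in WT oocytes, with overlap.

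Cdc20 was higher relative to the core as well, and Anapc10 lower relative to Cdc20. Cdc20 stood at 0.245, 0.215, 0.279 and 0.295 of the core sum in KO and at 0.206, 0.153 and 0.119 in WT oocytes. Anapc10 stood at 0.933, 1.06, 0.898 and 0.898 times the level of Cdc20 in KO and at 1.40, 2.66 and 2.84 times in WT oocytes. Neither set of ratios overlapped. For Anapc10 over Cdc20 that was fixed by the levels already given, since KO oocytes were lower in one gene and higher in the other, and these ratios were chosen after the levels were known. They do not depend on the scaling of a library as a whole. The ratio of Cdc20 to Fzr1 spread widely, at 19.8, 13.7, 57.3 and 33.5 in KO and 54.7, 191 and 20.1 in WT oocytes. The highest value rests on the 18 Fzr1 reads of WT2. On the log2(FPKM + 1) scale the ratio differed by 0.06, and the sign turned without KO3 (-0.15), without KO4 (-0.03) or without WT4 (-0.28).

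**Figure D3:**
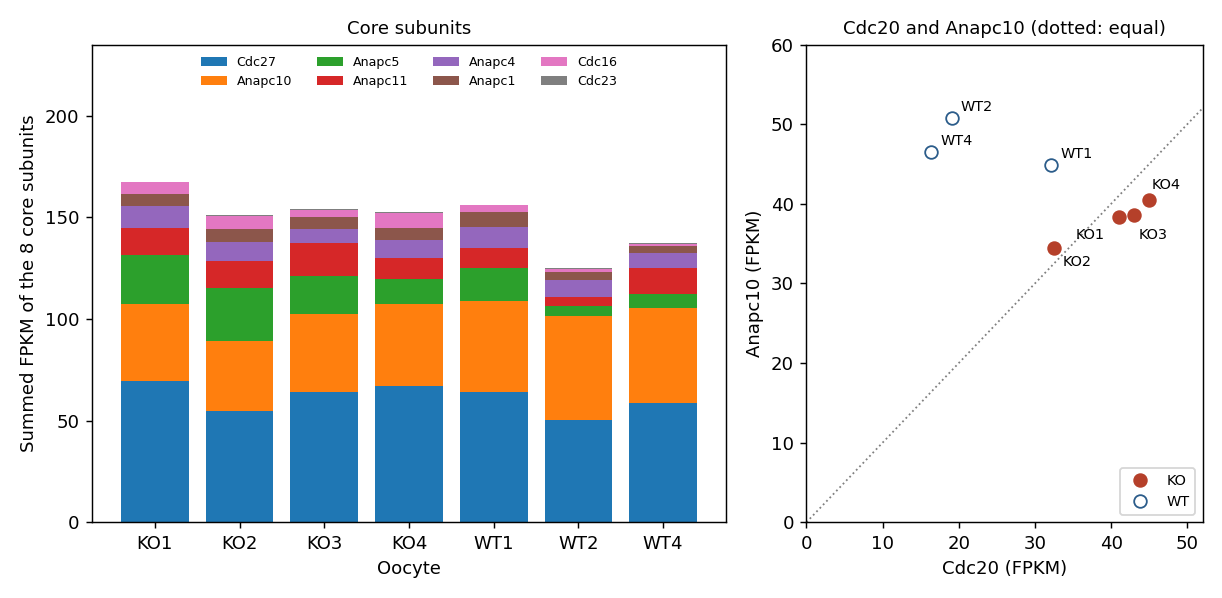
Left, the FPKM of the 8 core subunits stacked for each oocyte, KO left of WT, from 0. Right, Anapc10 against Cdc20 in FPKM for each oocyte, KO filled and WT open, where KO oocytes lie near the dotted line of equality and WT oocytes lie above it at 1.40 to 2.84 times.

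Differences shrank for most genes when libraries were scaled in other ways. The median of all genes past the filter was 0.18 as deposited, -0.01 with median-ratio scaling and 0.0017 with quantile normalization. Relative to that median, the deposited differences were 1.12 for Cdc16, 0.93 for Anapc5, 0.68 for Cdc20, 0.61 for Fzr1, 0.41 for Anapc11 and -0.50 for Anapc10. Over 1.5-fold higher in all 3 scalings were 4 of the 10 genes, Anapc5, Cdc16, Cdc20 and Fzr1, and Anapc11 dropped out (0.37 and 0.40). Of these 4, Fzr1 passed the filter through KO oocytes alone. Its difference was barely past 1.5-fold with quantile normalization (0.597) and was 0.27 with a pseudocount of 5. The shares of all genes over 1.5-fold higher were then 14.8% with median-ratio scaling and 14.4% with quantile normalization, and over 1.5-fold lower 14.0% and 12.7%. No APC/C gene had every KO oocyte above every WT oocyte in these scalings (12.5% and 12.4% of all genes), and Anapc10 alone had every KO oocyte below (14.9% and 13.7%). The sign turned with scaling for 3 genes. Anapc4 went to -0.17 and -0.15, Cdc23 to -0.06 and -0.15, and Cdc27 to -0.10 with median-ratio scaling but 0.11 with quantile normalization.

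**Figure D4:**
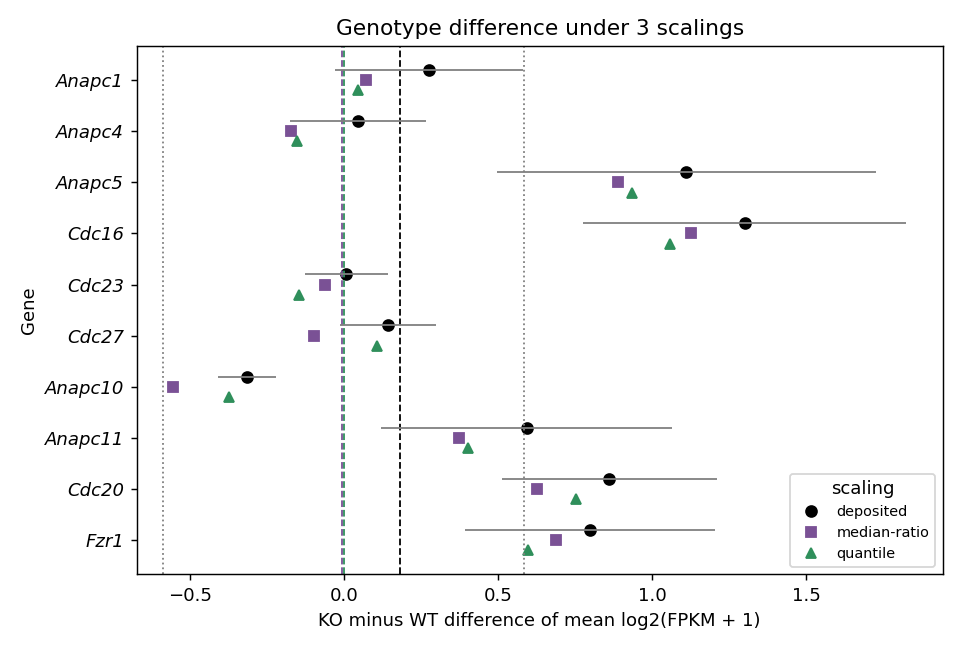
KO minus WT difference of mean log2(FPKM + 1) for each APC/C gene under 3 scalings, with grey bars for the pooled SD between oocytes of a genotype in the deposited values, dashed lines at the median of all genes past the filter per scaling, and dotted lines at 1.5-fold. Anapc5, Cdc16, Cdc20 and Fzr1 stay right of the 1.5-fold line under all 3, Fzr1 barely so under quantile normalization (0.597), and Anapc10 stays left of 0.

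The other subunits did not follow a single direction. Of 6, 1 was over 1.5-fold higher and 1 over 1.5-fold lower, beside 22.6% and 7.92% of all genes past the filter. As deposited, 2 of the 6 had every KO oocyte below every WT oocyte, beside 8.94% of all genes. It was 3 of 6 both with median-ratio scaling (14.9%) and with quantile normalization (13.7%). Anapc16, a small subunit, was at 36.1, 27.5, 22.4 and 18.3 FPKM in KO and at 47.8, 42.3 and 60.9 FPKM in WT oocytes, a difference of -0.95. The genotypes did not overlap in any of the 3 scalings. The small TPR-stabilizing subunit Cdc26 was also lower in all 3 scalings, at 8.06 ± 0.700 FPKM in KO and 9.65 ± 0.358 FPKM in WT oocytes, and its genotypes did not overlap. Anapc13, of the same kind, averaged 42.0 ± 8.31 FPKM in KO and 29.3 ± 12.4 FPKM in WT oocytes with overlap. Its difference of 0.586 just passed 1.5-fold as deposited and did not in the other scalings (0.35 and 0.49). Anapc2, the cullin that pairs with Anapc11, was scarce at 1.16 ± 0.321 FPKM in KO and 0.603 ± 0.318 FPKM in WT oocytes. The median difference of the 5 that passed the filter was -0.16, beside 0.18 for all genes.

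Of the ubiquitin-carrying enzymes that serve the APC/C, 1 of 3 was over 1.5-fold higher, beside 22.6% of all genes. Ube2s, which lengthens ubiquitin chains, was at 27.9, 52.3, 33.1 and 33.2 FPKM in KO and at 19.3, 8.55 and 19.0 FPKM in WT oocytes. The lowest KO value exceeded the highest WT value in all 3 scalings, and the difference was 1.22. Such a separation held for 18.9% of all genes as deposited, 12.5% with median-ratio scaling and 12.4% with quantile normalization. Ube2c, which starts the chains, averaged 41.1 ± 17.6 FPKM in KO and 28.6 ± 6.38 FPKM in WT oocytes and overlapped.

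Among 6 inhibitors, 1 stood over 1.5-fold above WT and 0 stood over 1.5-fold below as deposited, beside 22.6% and 7.92% of all genes. The counts were 0 above and 1 below (Bub3, -0.59) with median-ratio scaling, beside 14.8% and 14.0%. They were 1 above and 1 below (Mad2l2, -0.61) with quantile normalization, beside 14.4% and 12.7%. Every KO oocyte lay above every WT oocyte for 1 of the 6 as deposited, beside 18.9% of all genes. Fbxo5, which encodes EMI1, was at 91.9, 107, 117.1 and 117.3 FPKM in KO and at 46.9, 68.2 and 75.0 FPKM in WT oocytes, without overlap in all 3 scalings, with a difference of 0.78 (0.54, under 1.5-fold, with median-ratio scaling). Fbxo43, the gene of EMI2, was at 28.5, 35.2, 38.9 and 36.1 FPKM in KO and at 45.3, 28.8 and 35.3 FPKM in WT oocytes. These overlapped, and the difference of -0.06 was within the SD of either group. The level of Fbxo43 relative to Cdc20 was thus 0.693 to 1.08 in KO and 1.41 to 2.16 in WT oocytes. That of Fbxo5 relative to Cdc20 overlapped, at 2.24 to 3.29 in KO and 1.46 to 4.59 in WT oocytes. Both ratios were chosen after the levels were known. As Fbxo43 itself overlapped between genotypes, its ratio mainly restates the Cdc20 levels. Mad2l2, which can bind CDH1, had the largest difference below WT of the list, -0.37, at 2.08 ± 0.4658 FPKM in KO and 3.20 ± 1.84 FPKM in WT oocytes with overlap.

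The 18 substrates had a median difference of -0.06, beside 0.18 for all genes past the filter. Past 1.5-fold were 2 above WT and 0 below as deposited, beside 22.6% and 7.92% of all genes. It was 2 above and 3 below with median-ratio scaling, beside 14.8% and 14.0%. With quantile normalization it was 1 above and 1 below, beside 14.4% and 12.7%. In the deposited values Ccna2, Cdc25a and Cdca5 had all KO oocytes above all WT oocytes, and Gmnn, Sgo1 and Tk1 had all below. These were 3 of 18 each way, beside 18.9% of all genes above and 8.94% below. Ccna2, the cyclin A2 gene, was at 33.6, 29.9, 26.0 and 37.8 FPKM in KO and at 23.5, 12.2 and 9.04 FPKM in WT oocytes, a difference of 1.14. Cdc25a, a phosphatase that activates cyclin-dependent kinases, averaged 4.504 ± 0.596 FPKM in KO and 2.18 ± 0.894 FPKM in WT oocytes. The 2 substrates whose loss ends metaphase overlapped between genotypes. Pttg1, the securin gene, averaged 870 ± 157 FPKM in KO and 890 ± 70.5 FPKM in WT oocytes, and Ccnb1, the cyclin B1 gene, 248 ± 22.4 FPKM in KO and 301 ± 65.2 FPKM in WT oocytes.

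**Figure D5:**
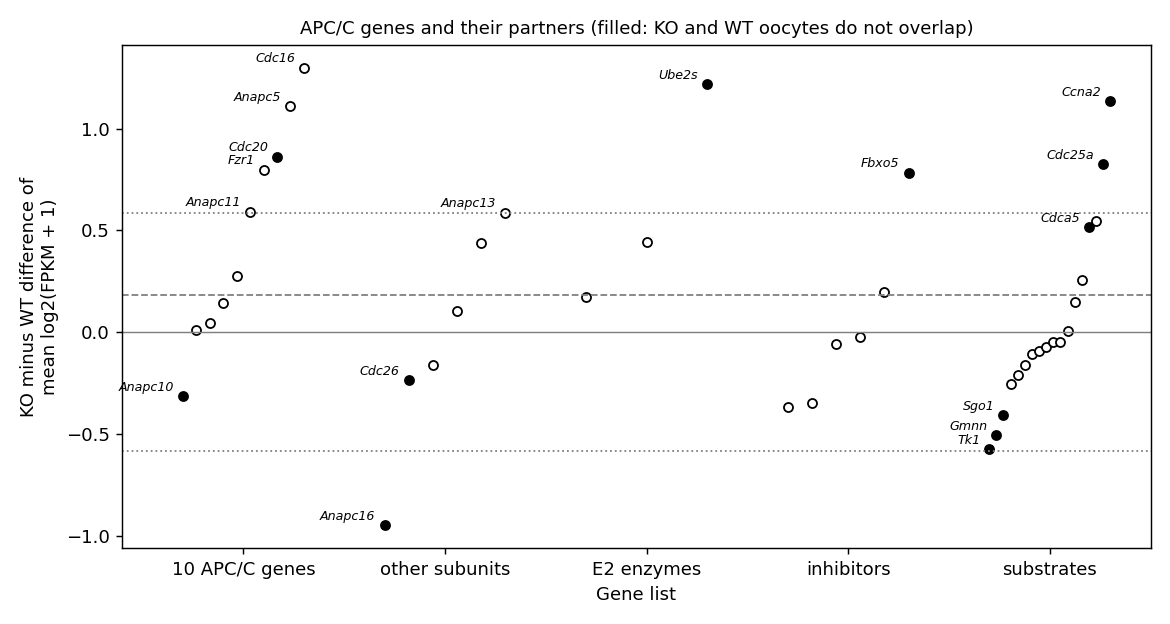
KO minus WT difference of mean log2(FPKM + 1) for the 10 APC/C genes, 6 other subunits, 3 ubiquitin-carrying (E2) enzymes, 6 inhibitors and 18 substrates, each point a gene, filled where the genotypes do not overlap. The dashed line is the median of all genes past the filter (0.18) and dotted lines mark 1.5-fold. Anapc16 at -0.95 and Ube2s at 1.22 are the outermost filled points.

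The 3′ ends of the transcripts differ in a feature that oocytes use. Maturing oocytes lengthen the poly(A) tails of mRNAs that carry a cytoplasmic polyadenylation element near the 3′ end. The element was searched as TTTTAT or TTTTAAT on the sense strand of the GENCODE M21 transcript with the longest coding part. It was in the 3′ UTR of 8 of the 10 genes, beside 64.6% of 7130 genes past the filter. It was in the last 100 bases for 2, Cdc20 and Cdc27, beside 21.7% of those genes. The site nearest the end is shown for both, with the element in capitals.
Cdc20: tcttgtTTTTATTTTATtttttctaataaa
Cdc27: ctaaccaagaaTTTTAATttattcgtcttg

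Cdc20 has a 3′ UTR of 62 bases with 2 overlapping copies, and the aataaa that ends the run shown is the polyadenylation signal. For Cdc27, neither AATAAA nor ATTAAA was found near the annotated end, so how far its element lies from the end in use is less certain. Cdc20 was 1.79-fold and Cdc27 1.11-fold as high in KO as in WT oocytes, so the 2 genes with the element near the annotated end differed from each other. Over all genes the median difference was 0.20 with the element in the last 100 bases and 0.18 without it.

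Outside these lists, the genes whose levels followed the mean of the 9 standardised APC/C genes most closely over the 7 oocytes were Gltp, Nf2 and Bmi1. Pearson's r of log2(FPKM + 1) was 0.995, 0.992 and 0.991, picked as the highest among all genes past the filter, so these values only describe. Gltp, for a glycolipid transfer protein, was at 9.07, 7.07, 6.09 and 6.59 FPKM in KO and at 7.32, 2.76 and 3.61 FPKM in WT oocytes. WT1 was the highest WT oocyte for Gltp.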

How the data were processed

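Single oocytes were lysed into an ultra-low-input cDNA kit, amplified and sequenced, per the labels' protocols. The authors deposited FPKM per Ensembl gene and oocyte. The submitters' processing notes name HTSeq, the mm9 build, TopHat and TopHat2 2.0.2, edgeR 3.1.10, and Bowtie2 and Bowtie 0.12.8, without roles. Spike-ins were not used here, so levels are relative within an oocyte.

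Symbols came from a reference table (87.4% of identifiers named). Read numbers were recovered from the steps of low FPKM values, within a tolerance of 0.01 of a whole number. They are the smallest that fit, and their intervals cover counting error only. The recovery and the difference were tested on simulated data. Differences used a pseudocount of 1 and the filter given above. No test was run, because the labels name no animal and a genotype counts as 1 sample.

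The genes and lists were chosen with earlier results of these data known. Genes outside the 10 were named by a rule, the 2 largest absolute differences per list past the filter, with the 3 of highest correlation outside the lists. The rule also let a listed gene be named where it was part of a small count, a choice made by outcome. Cdc26, Cdca5, Gmnn, Sgo1 and Tk1 came in that way. Anapc2, Bub3, Fbxo43, Pttg1, Ccnb1, Ooep, Mos and Nlrp5 were added after values were seen. So were the cumulus and granulosa markers named above other than Fshr and Nr5a2. Alternatives were other pseudocounts, filters, scalings and fold limits, and leaving out each oocyte. Work used Python 3.11.15, numpy 2.4.6, pandas 2.3.3, scipy 1.17.1 and matplotlib 3.10.9.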

Additional observations from a re-analysis of the deposited data

How the results depend on the processing

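Of 199 alternative values, 176 stayed within the spread between oocytes or within 1.5 times a count, and 168 of these also kept their sign. The other 8 were differences of Anapc4 and Cdc23, which turned below 0. The count of APC/C genes over 1.5-fold higher in KO oocytes was 5. It was 3 with a pseudocount of 5, 3 with a filter at FPKM 10 (of the 5 genes left, in place of 9), 2 with a fold limit of 2, and 4 to 5 with an oocyte left out. The filter was applied anew with each oocyte left out. Without KO1, KO2 or KO4, Fzr1 no longer passed it and the count was 4 of 8, or 5 with Fzr1 kept. Without KO3 or WT2 it was 4 of 9, as Anapc11 fell under 1.5-fold. The count over 1.5-fold lower was 0 in every alternative run. Genes with every KO oocyte above every WT oocyte numbered 1, then 0 with median-ratio scaling or quantile normalization, and 1 to 4 with an oocyte left out. Genes with every KO oocyte below numbered 1 in all 3 scalings, while the other alternatives could not undo that separation. The median difference of 0.59 ran from 0.21 (without WT2) to 0.70 (without WT1). The core sum's log2 ratio of 0.17 turned to -0.075 with median-ratio scaling. The log2 ratio of Cdc20 to Fzr1, 0.06, turned to -0.79 with a pseudocount of 0.1 and -0.062 with median-ratio scaling, and ran from -0.28 to 0.30 with an oocyte left out. Fzr1 itself differed by 1.68 with a pseudocount of 0.1 and 0.27 with a pseudocount of 5. The causes were not tested. Depth limits Fzr1 and Cdc23, with 18 to 424 and 44 to 163 reads per oocyte. No paired analysis was possible because no test was run and the numbers shared by KO and WT oocytes are not said to pair them.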
